A study of Homo sapiens with 12 samples.

Results

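MDA-MB-231 is an established human breast cancer line that lacks the hormone receptors and belongs to the triple-negative class. Its messenger RNA was examined here for 10 genes that act on the cell cycle, as brakes or drivers of G1 or in growth arrest. They are the CDK inhibitors CDKN1A, CDKN1B, CDKN1C, CDKN2B, CDKN2C and CDKN2D, the D cyclins CCND1 and CCND3, the retinoblastoma gene RB1 and the growth arrest gene GADD45A. The genes were taken by symbol from a table of 60664 genes, in which each of these 10 symbols had 1 row. Of the 10 genes, 9 passed the filter on low counts that left 17544 genes for testing, and CDKN2B did not. Wild-type cells grew in high-glucose DMEM with serum at pH 7.4 and were then held for 24 h at pH 7.4, 6.9 or 6.4, and each medium has 4 poly(A) RNA libraries. For the middle group the labels read 6.9 and the protocol text 6.7, and the former is used below. The 4 repeats of a medium are not stated to be separate cultures, so p-values measure only the spread between these libraries, which may be technical. By its title the study concerns acidosis, hypoxia and the dissemination of cancer cells.

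In G1, D cyclins bind the kinases CDK4 and CDK6 and start the phosphorylation of the retinoblastoma protein, which then lets go of E2F factors that switch on genes of DNA replication. INK4 inhibitors, such as the products of CDKN2B, CDKN2C and CDKN2D, bind CDK4 and CDK6 directly. Cip/Kip inhibitors, the products of CDKN1A (p21), CDKN1B (p27) and CDKN1C (p57), bind complexes of cyclin and kinase and restrain CDK2. GADD45A is a stress-induced gene whose product acts on growth arrest and on stress kinases.

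Libraries held between 21060767 and 50643233 counted reads and between 17841 and 27384 detected genes. Repeat 1 at pH 7.4 and repeat 2 at pH 6.9 had the fewest detected genes, 17841 and 21628. The former lay at -177 on the first principal component of gene levels, which held 45.3% of the variance, and the other 11 libraries between -0.811 and 30.9. On the second component (22.1%), repeats 1, 2 and 4 at pH 6.4 lay at 43.4, 73.0 and 58.0, but repeat 3 at -0.142. The pH 6.9 libraries lay there between -31.2 and -1.08, and those of pH 7.4 between -45.4 and 12.6. Repeats 2 and 4 at pH 6.4, which had the highest CDKN1A and the lowest CCND3 levels, had TMM factors of 0.916 and 0.939 and mitochondrial ribosomal RNA shares of 1.60% and 1.72%. In the other libraries these ranged from 0.984 to 1.03 and from 0.879% to 1.28%. Of the markers of the line, VIM lay between 1584 and 2816 CPM (read counts scaled to a common library size) and EGFR between 377 and 518, while SPARC reached only 4.15. The receptor genes ESR1 and PGR stayed at or below 0.278 CPM. Of other genes listed as low in the line, the keratin KRT19 reached 315, EPCAM 24.3, GATA3 21.2, ERBB3 15.9 and CDH1 3.16. The endothelial genes PECAM1, VWF and CDH5 reached 12.4, 0.726 and 0.0731 CPM. The leukocyte gene CD3E and the red cell gene HBB had 0 and 2 reads in all. Of 4 leukocyte markers the summed level was 3.46 to 6.51 CPM at pH 7.4, 2.97 to 4.98 at pH 6.9 and 1.51 to 2.88 at pH 6.4, most of it CD14. The 6 markers of the line summed to 4394 to 4673, 4584 to 5200.4 and 5674 to 7331 CPM. The summed level of 4 stroma markers was 36.7 to 39.7, 28.0 to 33.4 and 20.8 to 25.4 CPM in the same order. The part of these features and markers in the results below was not tested, apart from fits without single libraries.

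At pH 6.4, GADD45A, CDKN1A and CDKN2D rose against pH 7.4, and CCND3, CCND1 and RB1 fell. The changes were moderate, from 1.77-fold higher for GADD45A to 1.41-fold lower for CCND3. Thus 6 of 9 tested genes passed the test (adjusted p under 0.05 by edgeR's quasi-likelihood test, adjusted over all genes), 3 in each direction, where 30.3% of all tested genes did, 15.6% upward and 14.7% downward. The groups' libraries did not overlap for 5 of the 9, against 27.9% of all genes. At pH 6.9 none of the 9 passed by this test, with 3 at an unadjusted p under 0.05, and 0.724% of all genes passed (0.313% higher, 0.41% lower). DESeq2 called 1 of them there, and 3.19% of all genes, and limma-voom called 2, and 7.11% of all genes. With the repeat number as a block, GADD45A, CDKN2D and CDKN1C passed there. That fit also called more of all genes there than the main test did, with the count given in the closing part. Libraries of pH 6.9 and pH 7.4 did not overlap for 3 of the 9, against 10.1% of all genes. Between pH 6.4 and pH 6.9, 1 gene rose and 2 fell, and 17% of all genes passed (8.83% higher, 8.2% lower). The libraries of these media did not overlap for 3 of the 9, against 20.4% of all genes. The median change of the 9 genes was -0.08, -0.01 and 0.06 on the log2 scale for pH 6.4 against 7.4, pH 6.9 against 7.4 and pH 6.4 against 6.9, beside medians of -0.00083, 0.01 and -0.01 over all genes. The first 2 comparisons share the pH 7.4 libraries and are given side by side only. In bulk RNA, fewer cells in a state and less RNA per cell cannot be told apart.

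**Figure D1:**
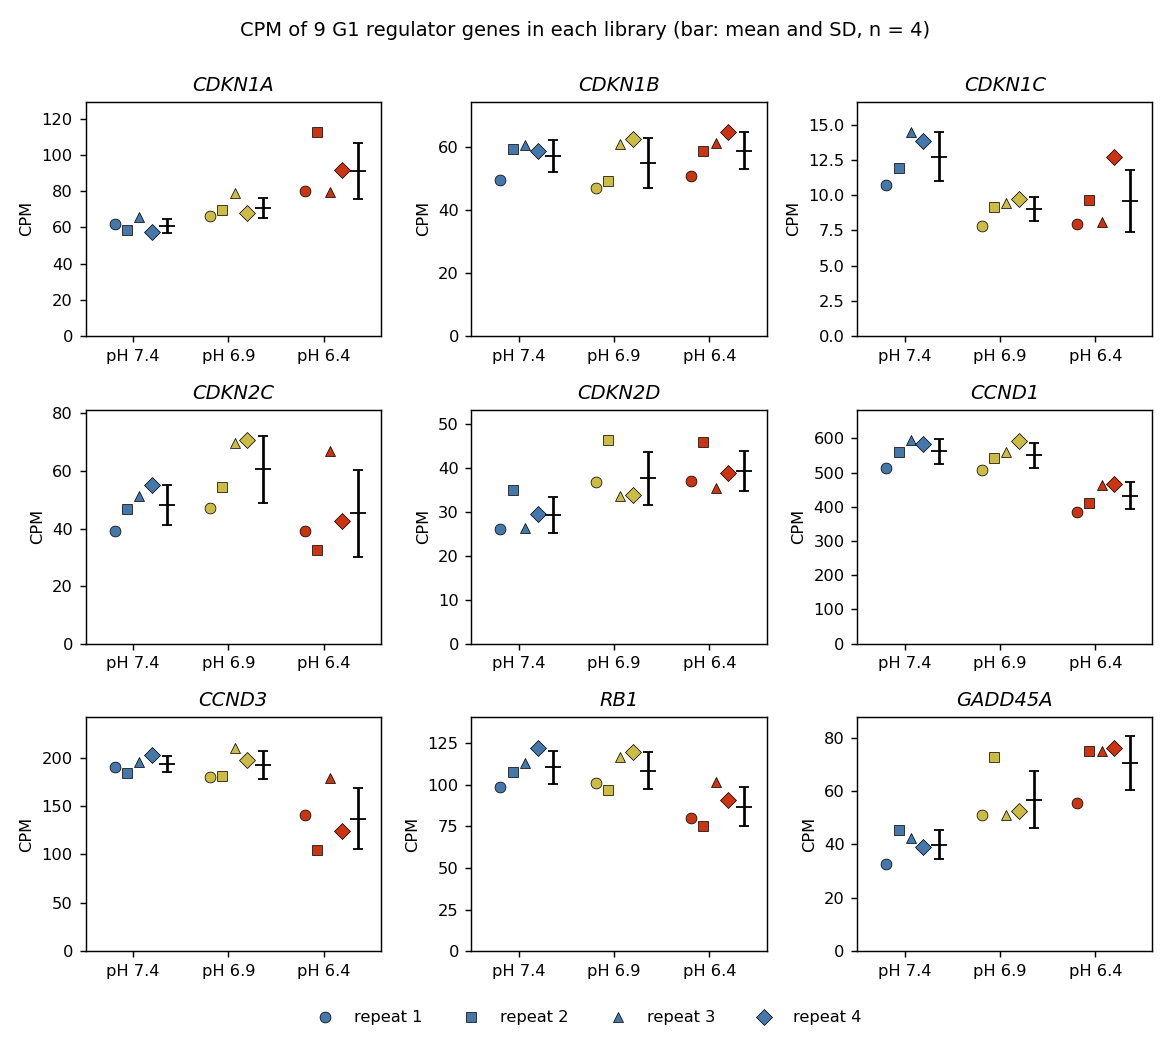
CPM of the 9 tested genes in each library by medium, with the mean and SD of 4 libraries beside the points. GADD45A and CDKN1A lay higher at pH 6.4 than at pH 7.4 in all 4 libraries, CCND1 and CCND3 lower, and CDKN1B showed no such separation.

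Among the Cip/Kip inhibitors only CDKN1A was called. CDKN1A (ENSG00000124762, chromosome 6, 36676460 to 36687339, plus strand, GRCh38) encodes p21, a stress-induced inhibitor of CDK2. It stood at 62.0, 58.4, 65.5 and 57.5 CPM in repeats 1 to 4 at pH 7.4, at 66.4, 69.6, 79.0 and 67.9 at pH 6.9, and at 80.3, 113, 79.4 and 92.0 at pH 6.4. Every pH 6.4 library lay above every pH 6.9 library, and those lay above every pH 7.4 library, the closest being 79.4 and 79.0 CPM, with repeat 2 at pH 6.4 the highest. CDKN1A rose from 60.9 ± 3.68 CPM at pH 7.4 to 91.1 ± 15.5 at pH 6.4 (SD, n = 4), with a log2 change of 0.58 (SE 0.11, adjusted p = 0.00126). Its pH 6.9 mean of 70.7 ± 5.67 CPM (SD, n = 4) differed from pH 7.4 by 0.22 on the log2 scale (95% interval -0.01 to 0.45, adjusted p = 0.466). The step from pH 6.9 to pH 6.4 was 0.37 (adjusted p = 0.0329). This last call was kept in 7 of 12 fits that left out 1 library. The adjusted p became 0.0969, 0.0712 and 0.0804 when repeats 1, 2 and 4 of pH 6.9 were dropped in turn, and 0.117 and 0.0886 for repeats 2 and 4 of pH 6.4. In all, 10 of 23 alternatives lost the call. The others were scaling by library size alone (0.0603), a fit of only the media compared (0.0553), leaving out the libraries of fewest detected genes (0.0707), repeats 1 and 2 alone (0.51, adjusted p = 0.0564) and repeats 3 and 4 alone (0.24, adjusted p = 0.348). The long non-coding gene DINOL lies on the other strand and shares 146 of the 3050 exon bases of CDKN1A. The sources used here do not give the strand setting of the counting, so its reads could be included.

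CDKN1B (ENSG00000111276, chromosome 12, 12715058 to 12722371, plus strand) encodes p27, whose protein level is known to be set largely by its breakdown. Its means (± SD, n = 4) were 57.1 ± 5.13 CPM in neutral medium, 54.9 ± 7.97 in the middle one and 58.8 ± 5.95 in the most acid one. The libraries of all media overlapped, between 46.9 and 64.6 CPM, and repeat 1 was the lowest in each medium. The log2 difference of pH 6.4 against pH 7.4 was 0.04 (95% interval -0.20 to 0.28, adjusted p = 0.818), an interval that leaves room for a small change either way.

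The reference promoters of CDKN1A and CDKN1B are shown because the first of these relatives was called at pH 6.4 and the other was not, a difference between genes that was not tested. The windows run from 250 bases before to 50 bases after the RefSeq start on GRCh38.p14, 5′ to 3′ on the gene's strand, at chr6:36678464-36678763 and chr12:12717118-12717417. Capitals mark matches, on either strand, to the 10 motifs searched. These were the GC box (GGGCGG), the CCAAT box, the cAMP response element TGACGTCA and its core of TGACG, and the TATA box (TATAAA). The others were the E2F motifs TTTCCCGC and TTTGGCGC, a FOXO motif (GTAAACA), an ATF4 motif (TGATGCAA) and an E box (CACGTG).
CDKN1A: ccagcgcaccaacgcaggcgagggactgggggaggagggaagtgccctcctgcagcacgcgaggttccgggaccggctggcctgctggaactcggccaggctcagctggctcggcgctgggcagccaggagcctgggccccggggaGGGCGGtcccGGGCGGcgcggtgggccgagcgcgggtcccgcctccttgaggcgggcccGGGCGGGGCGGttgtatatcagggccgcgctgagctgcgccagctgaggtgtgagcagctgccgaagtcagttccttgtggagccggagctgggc
CDKN1B: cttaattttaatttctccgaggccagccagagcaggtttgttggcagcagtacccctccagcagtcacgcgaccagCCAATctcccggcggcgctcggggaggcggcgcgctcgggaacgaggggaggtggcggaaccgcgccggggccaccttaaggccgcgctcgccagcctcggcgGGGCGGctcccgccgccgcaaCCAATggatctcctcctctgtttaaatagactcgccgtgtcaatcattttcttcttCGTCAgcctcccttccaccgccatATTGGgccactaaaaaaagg
The CDKN1A window held 4 GC boxes, 2 of which overlap by a base, and none of the other motifs. The CDKN1B window held 1 GC box, 3 CCAAT boxes and 1 TGACG core. A GC box stood in 44.9% of 35093 RefSeq windows of this length, CCAAT in 34.6% and TGACG in 24.5%. GC content was 74.3% in the CDKN1A window and 62.3% in that of CDKN1B, beside a median of 58.7% over all 35093 windows. These matches describe the letters in the windows only.

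CDKN1C (ENSG00000129757, chromosome 11, 2883213 to 2885773, minus strand) encodes p57, an imprinted inhibitor, and was the least abundant of the 9. It had 10.7, 11.97, 14.5 and 13.8 CPM at pH 7.4, 7.80, 9.15, 9.45 and 9.74 at pH 6.9, and 7.97, 9.64, 8.08 and 12.7 at pH 6.4. The pH 6.9 libraries all lay below those of pH 7.4, while repeat 4 at pH 6.4 reached into the pH 7.4 range. No comparison was called, with log2 differences of -0.50 at pH 6.9 (SE 0.16, adjusted p = 0.205) and -0.41 at pH 6.4 (SE 0.16, adjusted p = 0.0713) against pH 7.4. The pH 6.4 difference was past the threshold without repeat 1 at pH 7.4 (-0.48, adjusted p = 0.0443) or without repeat 4 at pH 6.4 (-0.57, adjusted p = 0.0166). Limma-voom gave -0.60 at pH 6.9 (adjusted p = 0.00673) and -0.57 at pH 6.4 (adjusted p = 0.00293), and scaling by library size alone gave -0.50 (adjusted p = 0.0285). A block on the repeat number also took the pH 6.9 difference past the threshold.

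Of the INK4 genes, CDKN2D was called, CDKN2C was not and CDKN2B had no reads. CDKN2D (ENSG00000129355, chromosome 19, 10566462 to 10569059, minus strand) encodes p19, an inhibitor of CDK4 and CDK6. Its values were 26.1, 35.0, 26.3 and 29.5 CPM at pH 7.4, 36.9, 46.3, 33.5 and 33.8 at pH 6.9, and 37.0, 45.8, 35.5 and 38.9 at pH 6.4. The pH 6.4 libraries all lay above pH 7.4, by a narrow margin between 35.0 and 35.5, and overlapped those of pH 6.9. CDKN2D rose by 0.42 on the log2 scale from pH 7.4 to pH 6.4 (SE 0.13, adjusted p = 0.0233). At pH 6.9 the difference was 0.36 (95% interval 0.08 to 0.64), which did not pass the test (adjusted p = 0.254). It passed with the repeat number as a block (adjusted p = 0.0121). The pH 6.4 rise missed the threshold when pH 7.4 lacked repeat 1 (0.0598) or 3 (0.0694), and when pH 6.4 lacked repeat 2 (0.0823). Its reference promoter, chr19:10568930-10569229 on the minus strand, is given as that of the INK4 gene that rose, marked in the same way.
CDKN2D: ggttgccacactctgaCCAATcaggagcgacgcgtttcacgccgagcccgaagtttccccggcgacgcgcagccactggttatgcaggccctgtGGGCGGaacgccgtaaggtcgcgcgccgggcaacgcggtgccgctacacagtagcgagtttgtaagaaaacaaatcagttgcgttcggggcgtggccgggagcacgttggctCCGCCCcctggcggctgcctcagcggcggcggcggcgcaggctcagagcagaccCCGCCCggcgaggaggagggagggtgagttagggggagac
The CDKN2D window held 3 GC boxes and 1 CCAAT box, at 68% GC. GC boxes were not particular to genes that rose. Of the windows not printed, 1 of CDKN2C, which was not called, held 6. Windows of CCND3, which fell, held up to 5.

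CDKN2C (ENSG00000123080, chromosome 1, 50960745 to 50974633, plus strand) encodes p18, a further inhibitor of CDK4 and CDK6 and a known E2F target. It had 39.1, 46.9, 51.3 and 55.1 CPM at pH 7.4, 47.2, 54.5, 69.8 and 70.7 at pH 6.9, and 39.3, 32.4, 67.1 and 42.5 at pH 6.4. At pH 6.4 repeat 3 stood apart at 67.1 CPM, while the other 3 libraries lay between 32.4 and 42.5. No comparison was called, and the log2 difference of pH 6.4 from pH 6.9 was -0.42 (SE 0.20, adjusted p = 0.161). Without repeat 3 at pH 6.4 it was -0.67 (adjusted p = 0.00567). This difference passed under 3 of 23 alternatives, that fit among them. The difference from pH 7.4 was -0.08 (95% interval -0.50 to 0.33), and without repeat 2 at pH 6.4 it was 0.05, on the other side of 0.

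CDKN2B (ENSG00000147883, chromosome 9, 22002903 to 22009363, minus strand) encodes p15, an INK4 inhibitor known for its induction by TGF-beta. It had 0 reads in each of the 12 libraries, which together held 475357295 reads. A count of 0 allows up to 3 reads per library, or between 0.0595 and 0.140 CPM, for counting error only. The neighbouring INK4 gene CDKN2A also had 0 reads in every library. So did MTAP, a methionine salvage enzyme active in most tissues, and KLHL9, a ubiquitin ligase adaptor. Loss of the CDKN2A region is known for this line as background, and DNA was not measured here. In the annotation 24 named protein-coding genes in a row, from HACD4 to IZUMO3, had no read in any library, over 3546 kb, many of them interferon genes that resting cells rarely express. The run ended at FOCAD, with 2702 reads, on one side and at TUSC1, with 4462 reads, on the other. Within it the antisense gene CDKN2B-AS1 had 152 reads in 11 libraries and the pseudogenes KHSRPP1 and CLIC4P1 had 67 and 180. The neighbouring genes were examined after the CDKN2B counts had been seen.

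**Figure D2:**
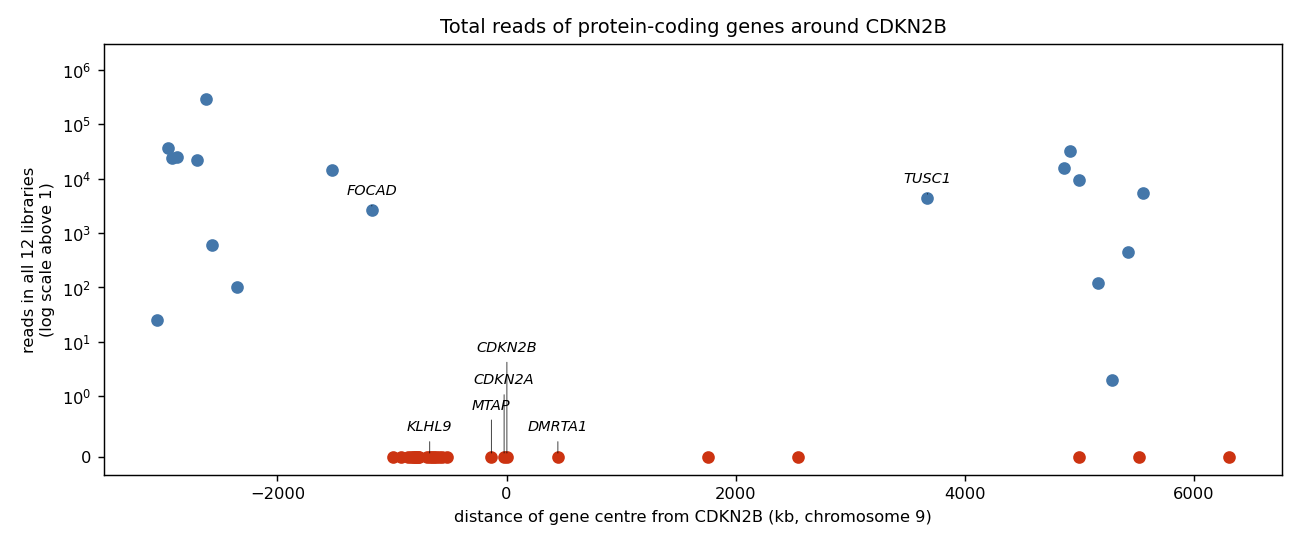
Reads summed over 12 libraries for each protein-coding gene around CDKN2B (vertical axis, log scale above 1) by distance from CDKN2B in kb. Red points are genes with no read, and FOCAD and TUSC1 are the first counted genes on either side of a run of 24 genes at 0.

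Both D cyclins fell at pH 6.4 and lay close to the pH 7.4 level at pH 6.9. CCND1 (ENSG00000110092, chromosome 11, 69641087 to 69654474, plus strand), the most abundant D cyclin here per exon length, stood at 513, 559, 595 and 583 CPM at pH 7.4, 506, 543, 559 and 592.5 at pH 6.9, and 386, 411, 463 and 467 at pH 6.4. All pH 6.4 libraries lay below all others. CCND1 fell from 562 ± 36.1 to 432 ± 39.8 CPM (SD, n = 4), a log2 change of -0.38 against pH 7.4 (SE 0.08, adjusted p = 0.00394) and of -0.35 against pH 6.9 (SE 0.08, adjusted p = 0.0141). The pH 6.9 difference from pH 7.4 was -0.03 (95% interval -0.21 to 0.15). Leaving out repeat 2 at pH 6.4 took the pH 6.4 against pH 6.9 call just past the threshold (-0.33, adjusted p = 0.0505). LTO1, on the other strand, shares 497 of the 4830 exon bases of CCND1.

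CCND3 (ENSG00000112576, chromosome 6, 41934933 to 42050357, minus strand), the second D cyclin, had 190, 184, 196 and 203 CPM at pH 7.4, 180.4, 181, 210.3 and 198 at pH 6.9, and 140.2, 104, 179 and 124 at pH 6.4. The pH 6.4 libraries lay below all others, but repeat 3 missed the next library by little, 179 against 180.4 CPM. CCND3 fell by 0.50 on the log2 scale against pH 7.4 (SE 0.13, adjusted p = 0.00873) and by 0.49 against pH 6.9 (SE 0.13, adjusted p = 0.0182). Without repeat 3 at pH 6.4 the first value was -0.65 and the second -0.65. The call against pH 6.9 was lost when pH 6.4 lacked repeat 2 (-0.38, adjusted p = 0.0551) or 4 (-0.45, adjusted p = 0.0621), and when pH 6.9 lacked repeat 3 (-0.45, adjusted p = 0.0542).

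RB1 (ENSG00000139687, chromosome 13, 48303726 to 48599436, plus strand), the pocket protein gene that the kinases act on, had 98.9, 108, 113 and 122 CPM at pH 7.4, 101, 97.2, 116 and 120 at pH 6.9, and 80.2, 75.3, 102 and 90.8 at pH 6.4. Only repeat 3 at pH 6.4 reached into the range of the other media. RB1 fell by 0.35 on the log2 scale against pH 7.4 (SE 0.11, adjusted p = 0.0233), and the difference from pH 6.9 was -0.32 (SE 0.11, adjusted p = 0.0515). That fall missed the threshold when pH 6.4 lacked repeat 1 (0.0720) or 2 (0.0795), and when pH 7.4 lacked repeat 3 (0.0550) or 4 (0.0740). The difference from pH 6.9 passed under 8 of 23 alternatives, among them those without repeat 3 at pH 6.4 (-0.40, adjusted p = 0.00915), without repeat 1 at pH 7.4 (-0.32, adjusted p = 0.0432) and by DESeq2 (-0.31, adjusted p = 0.0326).

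GADD45A (ENSG00000116717, chromosome 1, 67685061 to 67688338, plus strand), a stress sensor of growth arrest, had the largest change of the 9 in pH 6.4 against pH 7.4. It stood at 32.8, 45.3, 42.4 and 39.0 CPM at pH 7.4, 50.9, 72.7, 50.9 and 52.7 at pH 6.9, and 55.5, 75.1, 75.0 and 76.2 at pH 6.4. All libraries of both acid media lay above all of pH 7.4, and the acid media overlapped through repeat 2 at pH 6.9 and repeat 1 at pH 6.4. GADD45A rose from 39.9 ± 5.39 to 70.5 ± 10.0 CPM (SD, n = 4), by 0.82 on the log2 scale (SE 0.14, adjusted p = 0.000765). This call held in all 12 fits without 1 library, with a highest adjusted p of 0.0033. At pH 6.9 the mean was 56.8 ± 10.6 CPM (SD, n = 4), a log2 difference of 0.51 from pH 7.4 (95% interval 0.21 to 0.81, adjusted p = 0.124). DESeq2 (adjusted p = 0.0295), limma-voom (adjusted p = 0.0361) and the fit with no filter on low counts (adjusted p = 0.0371) called it. So did the fit with the repeat number as a block (adjusted p = 0.00821). Without the libraries of fewest detected genes, repeat 1 at pH 7.4 and repeat 2 at pH 6.9, the pH 6.9 difference was 0.29 (adjusted p = 0.592). Between pH 6.4 and pH 6.9 the difference was 0.31 (adjusted p = 0.143), and 0.45 (adjusted p = 0.0385) without repeat 2 at pH 6.9. This last fit was 1 of 4 among 23 alternatives that called the difference between the acid media. Repeats 1 and 2 alone gave 0.08 (adjusted p = 0.882), and the other pair of repeats gave 0.56 (adjusted p = 0.213).

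**Figure D3:**
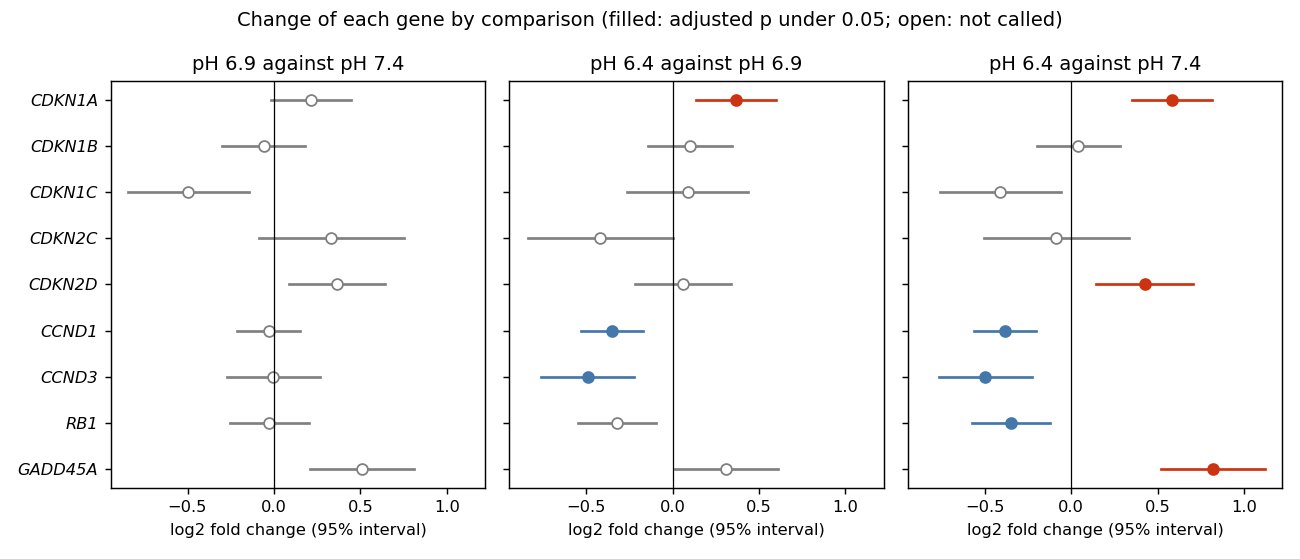
Log2 fold change of each tested gene with its 95% interval in the 3 comparisons, filled where the adjusted p was under 0.05. In pH 6.9 against pH 7.4 all 9 are open, and CCND1, CCND3 and RB1 sit close to 0, at -0.03, -0.01 and -0.03.

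The order of the means across the media followed from these comparisons. CDKN1A, CDKN2D and GADD45A went from pH 7.4 through pH 6.9 to pH 6.4. Their neighbours in that order did not differ by the test, apart from pH 6.9 and pH 6.4 for CDKN1A. CCND1, CCND3 and RB1 went the other way, with pH 7.4 and pH 6.9 not separated and pH 6.4 lower than pH 6.9 for the cyclins. Means of CDKN2C were highest and those of CDKN1B and CDKN1C lowest at pH 6.9, with no neighbours called. Within repeats 1 and 2 alone and within repeats 3 and 4 alone, the 6 called genes kept their direction in pH 6.4 against pH 7.4. The log2 changes in these subsets were 0.75 and 0.90 for GADD45A, 0.69 and 0.49 for CDKN1A, and 0.44 and 0.42 for CDKN2D. They were -0.61 and -0.39 for CCND3, -0.42 and -0.33 for CCND1, and -0.41 and -0.28 for RB1. With 2 libraries per medium, 5 of the 9 passed in repeats 1 and 2, where 22% of all tested genes did, and 1, GADD45A, in repeats 3 and 4, where 8.9% did.

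Levels of different genes were compared only per length, as mean CPM per kb of annotated exon over the 12 libraries. CCND1 led at 107, followed by CCND3 at 30.0, GADD45A at 26.9, CDKN1A at 24.3, CDKN2D at 23.5 and CDKN1B at 20.3. RB1 at 15.8 and CDKN2C at 15.5 came next, and CDKN1C stood at 4.22. The length counts every annotated exon of a gene, used or not, so these levels are rough. On this scale CDKN1A and CDKN1B were alike at pH 7.4, at 20.0 and 20.3 CPM per kb, and stood at 29.9 and 20.9 at pH 6.4.

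The balance of inhibitor to cyclin reads can be read within each library, where scaling between libraries plays no part. The log2 ratio of CDKN1A to CCND1 reads went from -3.21 ± 0.12 in neutral medium to -2.96 ± 0.13 in the middle one and -2.26 ± 0.28 in the most acid one (SD, n = 4). Its pH 6.4 libraries, from -2.55 to -1.87, lay above all others, whose highest was -2.82. CDKN1B to CCND1 gave -3.30 ± 0.06, -3.34 ± 0.13 and -2.88 ± 0.06 (SD, n = 4), again with no overlap between pH 6.4 and the rest. Among the INK4 genes, CDKN2D to CDKN2C was -0.72 ± 0.26, -0.68 ± 0.45 and -0.16 ± 0.58 (SD, n = 4), with overlap between all media. CDKN1B itself was not called, so its ratio to CCND1 largely restates the fall of CCND1. These ratios were formed after the results of their genes were known and carry no test.

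**Figure D4:**
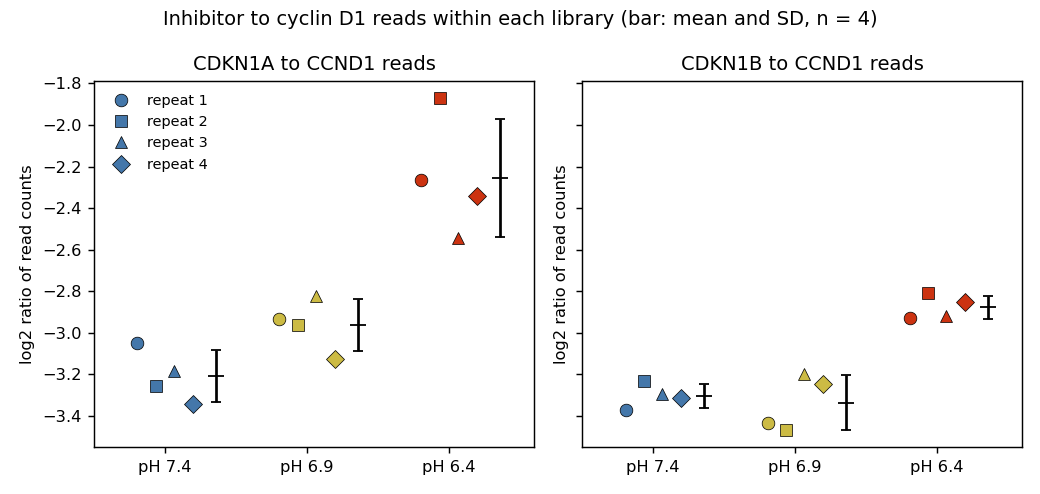
Log2 ratio of CDKN1A (left) and CDKN1B (right) reads to CCND1 reads in each library by medium, with mean and SD of 4 libraries. The pH 6.4 libraries lie above all others in both panels, with repeat 2 at -1.87 the highest for CDKN1A.

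The closest relatives of these genes gave mixed results at pH 6.4 against pH 7.4. The third D cyclin gene, CCND2, was scarce and rose from 0.470 to 4.75 CPM (log2 3.31, SE 0.68, adjusted p = 0.00244). Its libraries ranged from 0 to 0.825 CPM at pH 7.4 and from 1.46 to 8.31 at pH 6.4, and 1 of the pH 7.4 libraries had no read, so the fold is poorly set. The CCND2 value is uncertain because a further annotated gene on its strand shares 989 of its 7157 exon bases. The pocket protein genes parted, with RBL2 (p130) higher by 0.47 (adjusted p = 0.00181) and RBL1 (p107) lower, by -0.60 (adjusted p = 0.023). The phosphatase gene CDKN3 had a difference of 0.33 (adjusted p = 0.0718). GADD45B, at 52.0 CPM at pH 7.4, differed by -0.05 (adjusted p = 0.825), and GADD45G reached at most 1.07 CPM in any library.

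Of 12 kinases and cyclins of G1 and their partners, 6 rose and 4 fell (median log2 change 0.09). CDK2, the partner of cyclin E, rose from 73.4 to 115 CPM (log2 0.64, adjusted p = 6.21e-05), while the cyclin E gene CCNE1 fell from 23.1 to 12.5 CPM (adjusted p = 0.000371). CDK4 fell by 0.62 (adjusted p = 0.00138), whereas CDK6, named after its value was seen, rose by 0.64 (adjusted p = 0.0028). CDK2 was the 1 gene of this list called at pH 6.9, at 0.45 (adjusted p = 0.0113). Of 18 genes of E2F factors, pocket proteins and the DREAM complex, 2 rose and 5 fell (median -0.18). The repressor E2F7 rose by 0.59 (adjusted p = 4.83e-05) and the repressor E2F6 fell by 0.43 (adjusted p = 0.0268).

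Genes for the breakdown of inhibitors and cyclins gave 4 rises and 2 falls of 18 (median 0.03). FBXW7, the ubiquitin ligase part that recognises cyclin E, rose from 25.04 to 41.1 CPM (adjusted p = 0.00146). CKS2 rose by 0.60 (adjusted p = 0.00107), and the kinase GSK3B, which marks cyclin D1 for breakdown, and the ligase part BTRC rose by 0.40 and 0.50. In the GADD45 family and its partners 3 of 9 rose and 1 fell (median 0.17), with CDK1 at 0.32, its cyclin CCNB1 at 0.31, the stress kinase MAPK8 at 0.24 and the replication clamp PCNA at -0.43.

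Of 24 p53 targets other than the genes above, 7 rose and 2 fell (median 0.18). SESN2, a stress-induced sestrin, rose by 1.18 (adjusted p = 0.000243), the death gene BBC3 by 1.29 and the cyclin G gene CCNG1 by 0.50, while the oxidoreductase TP53I3 fell by 1.33. As background, this line carries a mutant p53. MDM2, a classical p53 target named after its value was seen, differed by 0.15 (adjusted p = 0.178). Of 26 transcriptional regulators known to act on these genes, 11 rose and 2 fell (median 0.31). They include SMAD3 at 1.06 (adjusted p = 1.12e-05), ATF4 at 0.62, MYC at 0.85 and the stress factor ATF3 at 1.64. Other antiproliferative genes gave 7 rises and 1 fall of 12 tested (median 0.51), with TXNIP at 2.78, the RNA-binding ZFP36L1 at 0.81, PDCD4 at 0.81 and HEXIM1, an inhibitor of transcription elongation, at -0.38.

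A list of 19 genes held S-phase genes that RB and E2F control and the general proliferation marker MKI67. At pH 6.4 against pH 7.4, 12 of them fell (median -0.43), beside 14.7% of all genes. The 1 that rose was MKI67, a name added with its value known. The licensing factor CDC6 fell by 0.85, the origin gene ORC1 by 0.64, GINS2 by 0.91 and the helicase gene MCM4 by 0.61. Against pH 6.9, 17 of 19 fell (median -0.69), where 8.2% of all genes did. Libraries did not overlap for 17 of the 19 in this comparison, beside 20.4% of all genes. Those of pH 6.4 and pH 7.4 did not overlap for 5 of the 19, beside 27.9% of all genes. At pH 6.9 against pH 7.4 none was called by edgeR, and the median was 0.21. The share of a list called at pH 6.4 against pH 7.4 ran from 33.3% for breakdown genes to 83.3% for G1 kinases and cyclins, beside 30.3% of all genes.

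**Figure D5:**
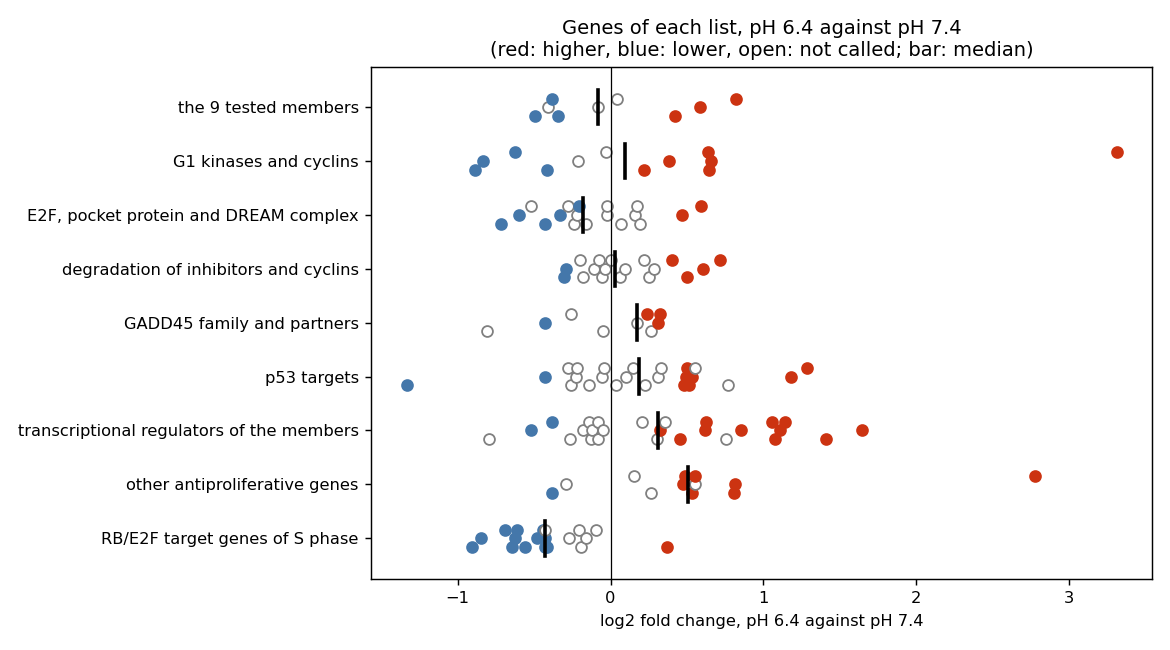
Log2 fold change at pH 6.4 against pH 7.4 of the 9 tested genes (top row) and of the tested genes of each list, with medians as bars and filled points for called genes. The S-phase list, which includes MKI67, has a median of -0.43 and the other antiproliferative genes one of 0.51.

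For each called gene the 2 genes whose pattern was most alike across the 12 libraries were found among 10773 candidates whose mean reached 5 CPM, by Pearson's r of log2(CPM + 1). This measure ranks patterns, not levels, and describes these libraries, and the medium itself contributes to r. Among the genes closest to CDKN1A was XBP1 (0.948), a factor of the unfolded protein response. GADD45A was closest to CDC42EP3 (0.970) and LIMCH1 (0.944), and CDKN2D to MIOS (0.949) and ARHGAP10 (0.948). CCND1 was closest to SAC3D1 (0.978) and LSM3 (0.950), CCND3 to PIGQ (0.993) and TMEM19 (0.993), and RB1 to SIRT2 (0.981) and GAMT (0.978). Without repeat 1 at pH 7.4 the values named here lay between 0.931 and 0.993.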

How the data were processed

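The authors deposited raw counts of reads per gene for 12 libraries made with a stranded poly(A) kit and sequenced on an Illumina instrument, per the labels' protocols. STAR, featureCounts and the build GRCh38.p13 are named in the submitters' processing notes. The sources used here give no versions, strand setting or rule for multi-mapping reads.

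In R 4.3.3, low counts were removed with filterByExpr, libraries were scaled by TMM, and edgeR 4.0.16 fitted 1 term per medium to all 12 libraries (robust quasi-likelihood test, 9 residual degrees of freedom). Calls needed a Benjamini-Hochberg adjusted p under 0.05 over 17544 genes. CPM values use the TMM-scaled library sizes. Alternatives used DESeq2 1.42.0, limma 3.58.1, other scalings and filters, and left out libraries. The test was tried on simulated counts. Rows lacking a symbol held up to 0.424% of a library's reads. Positions and exon lengths come from GENCODE 29, and promoter windows from RefSeq (GRCh38.p14), which matched 7 of 10 genes.

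The 10 genes and all lists were chosen with earlier results of these data known. All 10 genes are covered in every comparison. From each list the up to 4 genes with the lowest adjusted p are named, besides the close relatives, with any other name marked. CDKN2A, as a close relative, is given with its neighbour CDKN2B. Genes of like pattern were the 2 with the highest r per called gene, of which 1 is not reported here.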

Additional observations from a re-analysis of the deposited data

Results flagged for a closer look

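In 27 groups of 4 libraries, 2 held a library farther from the rest than Dixon's test allows. Chance gives about 1 such group in 20. Both concern GADD45A. Repeat 2 at pH 6.9 stood at 72.7 CPM, above the other 3 libraries at 50.9 to 52.7 CPM. Repeat 1 at pH 6.4 stood at 55.5 CPM, below the other 3 at 75.0 to 76.2 CPM. Without the first library the difference between pH 6.4 and pH 6.9 was 0.45 on the log2 scale in place of 0.31.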

How the results depend on the processing

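Of 9 genes, 6 were called in pH 6.4 against pH 7.4, and between 4 and 7 in fits without 1 library. GADD45A passed under all 23 alternatives, with log2 changes between 0.71 and 0.92. CDKN1A, CCND1 and CCND3 passed under 22, failing only within repeats 3 and 4 (adjusted p = 0.058, 0.0535 and 0.147). CDKN2D and RB1 passed under 18.

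Over all genes tested, 5321, 127 and 2988 were called in pH 6.4 against 7.4, pH 6.9 against 7.4 and pH 6.4 against 6.9, and of 137 tested genes on the lists, 69, 4 and 53. Without 1 library, the counts were 3795 to 6411, 39 to 306 and 1171 to 4944 for all genes, 43 to 85, 1 to 8 and 32 to 72 for listed genes, and 4 to 7, 0 to 0 and 0 to 5 for the 10 genes. For pH 6.4 against pH 6.9 the count of 3 became 0 without repeat 2, 1 without repeat 4 and 5 without repeat 3, all at pH 6.4. For pH 6.9 against pH 7.4, calls of all genes were 559 by DESeq2, 1247 by limma-voom, 201 with no filter, 250 with only the media compared, 20 without the 2 libraries of fewest genes, 7 within repeats 1 and 2 and 0 within repeats 3 and 4. Listed genes gave 21 by limma-voom, 10 with only the media compared, and 0 without those 2 libraries and within either subset of repeats. The 10 genes gave 1 by DESeq2 and with no filter (GADD45A) and 2 by limma-voom. For pH 6.4 against pH 6.9, limma-voom gave 6 of the 10 genes and 5609 of all, repeats 1 and 2 gave 1906 of all, and repeats 3 and 4 gave 0, 0 and 0. For pH 6.4 against pH 7.4, repeats 3 and 4 gave 1 of the 10, 22 listed genes and 1528 of all. Fewer libraries enter the fits within subsets. For the other changes the cause was not tested.

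Of 9 genes, 5 kept the order of their 3 means within repeats 3 and 4 and 5 to 9 without 1 library.

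With the repeat number as a replicate block, 7, 3 and 6 of the 10 genes passed in the same order of comparisons, with 7290 of all genes at pH 6.4 against pH 7.4, 15 listed genes and 947 of all at pH 6.9 and 5456 of all for pH 6.4 against pH 6.9. The 3 at pH 6.9 were GADD45A, CDKN2D and CDKN1C. The numbers do not pair the libraries by the labels. Deviations of same-numbered libraries correlated between 0.0447 and 0.447 (median 0.236), 10 of 12 pairs above 0.1. Pairs with different numbers lay between -0.413 and 0.235 (median -0.146), 12 of 36 above 0.1. Those 12 joined repeats 1 and 2 or repeats 3 and 4, and pairs across these sets were all negative. Deviations were taken from the mean of each medium and cancel within it, so positive pairs entail negative ones elsewhere. Of 12 libraries, 7 matched their own number best in both other media. These values are a hint from the data only.

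Differences near 0 changed sign without being called. For CDKN1B in pH 6.4 against pH 7.4 the value was -0.040 with library size only, -0.063 by limma-voom, -0.017 without the 2 libraries of fewest genes and -0.018 to 0.11 without 1 library. Against pH 6.9 it was -0.00078 by limma-voom, and at pH 6.9 against pH 7.4 it was 0.044 within repeats 3 and 4 and -0.13 to 0.014 without 1 library. CCND3 at pH 6.9 gave 0.00016 by limma-voom, 0.015 without those 2 libraries, 0.030 within repeats 3 and 4 and -0.046 to 0.028 without 1 library. At pH 6.9, RB1 gave 0.0012 within repeats 3 and 4 and -0.076 to 0.030, and CCND1 -0.069 to 0.010, without 1 library. CDKN2D between the acid media gave -0.022 with library size only, -0.0047 within repeats 1 and 2 and -0.020 to 0.18 without 1 library, and CDKN1C -0.079 to 0.17. CDKN2C against pH 7.4 gave 0.054 within repeats 3 and 4 and -0.33 to 0.048 without 1 library. With library size only, the share of rises among calls was 40.4% in place of 51.4% for pH 6.4 against pH 7.4 and 38.2% in place of 51.9% for pH 6.4 against pH 6.9. CDKN2B limits are set by depth.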
